A study of Mus musculus with 9 samples.

Results

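The arrays of the distal part of the small intestine, SI3, are described here for what set the mice on a palm oil diet apart from those on olive oil and safflower oil. They are 3 of the 9 arrays analysed, 1 for each diet. The log2 of signal plus 16 with palm oil was compared with that of both other diets, over probe sets that reached a signal of 500 in at least 1 of the 3 arrays. SI1, the part next to the stomach, and SI2, the middle part, went through the same comparison.

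All mice were male C57Bl/6J, an inbred strain, aged 9 weeks when the diets began, and had spent 2 weeks on a high-fat diet. The fat was palm oil in HF-PO, olive oil in HF-OO and safflower oil in HF-SO, and its P/S value in the labels was 1.0 for palm oil, 4.6 for olive oil and highest for safflower oil. RNA came from scraped mucosa, after the intestine had been divided into 3 parts of equal length, and was pooled from 6 mice per diet and part before 1 array was hybridised, so a value has no replicate, no error and no test, and the spread between mice cannot be seen. The 3 segments of a diet share the same mice. No low-fat array was analysed here. The title of the series points to more dietary fat reaching the distal intestine when the fat is saturated. The arrays measured RNA of the mucosa and not fat, so the comparison in SI3 cannot show how much fat arrived there.

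Dietary fat is cleaved in the lumen, and enterocytes take up the fatty acids, bind them to carrier proteins, activate them with coenzyme A and rebuild triglyceride from them. The triglyceride leaves the cell in chylomicrons, particles built on apolipoproteins, or waits in lipid droplets. Fatty acids also bind the nuclear receptor PPAR alpha, which switches on genes for their transport and oxidation. Most fat is absorbed in the proximal and middle intestine, while the distal part is the site of bile acid uptake.

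The 9 arrays had been scaled alike. Median signals lay between 94.4 and 105.9, upper quartiles between 440.4 and 472.3, and the highest signal of an array between 44534 and 56944. Between 10463 and 10894 probe sets reached 500. The 3 SI3 arrays matched their label: Fabp6, the bile acid carrier of ileal enterocytes, stood at 54148, 54912.5 and 52117, and the ileal bile acid importer Slc10a2 at 1598, 1778 and 1871 in HF-PO, HF-OO and HF-SO. The duodenal transcription factor Pdx1, at 17.2, 19.0 and 15.3 in that order, and the proximal genes Akp3 and S100g, at 88.0 or less on all 3 arrays, were near the bottom of the scale.

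A gene, taken as its brightest probe set, was counted as set apart where HF-PO lay at least 1.5-fold above both other diets or below both. Of 6712 genes past the filter in SI3, 67 (0.998%) were set apart higher with HF-PO and 17 (0.253%) lower. The same count gave 7 higher (0.104%) and 10 lower (0.149%) for HF-OO, and 10 higher (0.149%) and 10 lower (0.149%) for HF-SO. HF-PO was thus apart in 84 genes of SI3, against 17 and 20 for the other diets there. Of the 67 higher genes, 14 passed the filter through HF-PO alone and had to differ to be counted, as 104 of all 6712 genes passed it, and 53 passed through another diet too. In SI1 HF-PO was set apart higher in 17 of 6569 genes (0.259%) and lower in 12 (0.183%), and in SI2 higher in 10 of 6603 (0.151%) and lower in 21 (0.318%). That HF-PO stood out in SI3 depends on leaving out dim genes: with no filter on signal, 1538 genes were set apart in HF-PO, 1476 in HF-OO and 1333 in HF-SO.

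**Figure D1:**
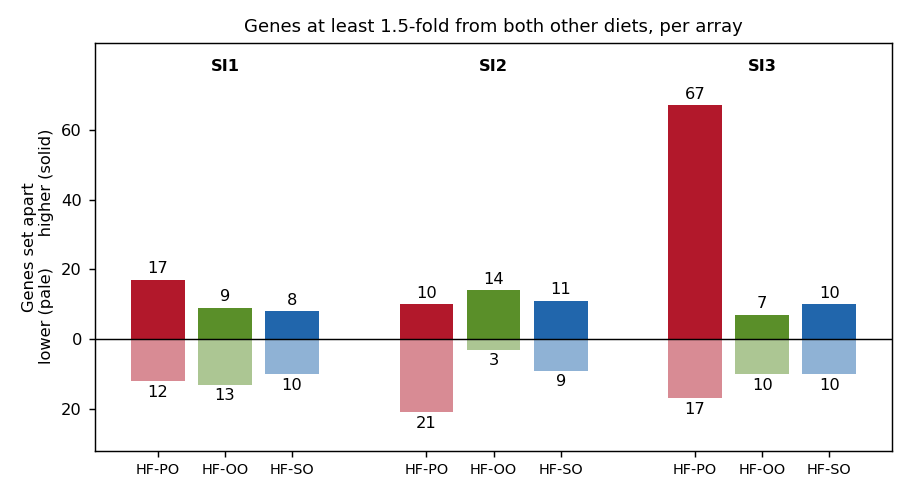
Number of genes at least 1.5-fold from both other diets of the same segment, per array (solid bars upward, higher; pale bars downward, lower; genes with a signal of 500 in at least 1 array of the segment). The HF-PO array of SI3 has the tallest upward bar, 67 genes, while the upward bars of the other 8 arrays lie between 7 and 17.

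Genes of fat handling stood among those set apart higher. Signals are given throughout in the order HF-PO, HF-OO and HF-SO, and a value in parentheses after them is the difference of HF-PO from the mean of the other diets on the log2 scale. Fabp1, the liver-type fatty acid carrier of enterocytes, had signals of 37792, 17101 and 14700.2 in SI3. HF-PO was 2.21-fold above the nearer diet. The second probe set of Fabp1 followed, at 29500.5, 13294 and 10987. In SI1 the order was turned, with 35550.0, 46171 and 51872.5, and in SI2 the diets lay together, at 42647, 43939 and 43212. From SI2 to SI3 Fabp1 was thus a little lower in the palm oil pool and far lower in both other pools. In SI1 and SI2 Fabp1 reached 79.4 to 97.0% of the highest signal of its array, against 68.8, 30.0 and 28.2% in SI3. Whether signals so near the top of the scale were compressed was not tested.

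Slc27a2, an acyl-CoA synthetase that takes up very long-chain fatty acids, stood at 2302.5, 1159 and 1198, a difference of 0.96 from the mean of the other diets on the log2 scale, compared with 0.37 in SI1 and 0.38 in SI2. Cd36, the fatty acid translocase, had 674.5, 406 and 383 (0.75). HF-PO was the highest of the diets for Cd36 by this probe set, while its other probe sets, at 299.6, 309.4 and 162.9 and at 82.4, 97.6 and 72.1, were below the filter and did not set HF-PO apart. Fabp2, the intestinal fatty acid carrier, did not differ in this way, at 46930.2, 49757 and 45774 (-0.02). Of 10 genes for fatty acid uptake, binding and activation past the filter (13 measured), 3 were set apart higher, 0 lower, and in 8 HF-PO lay above both diets. Their median difference was 0.33 in SI3, -0.00 in SI1 and 0.08 in SI2, where the median of all genes was between -0.01 and 0.00. The others named here were smaller, with 0.41 for the synthetase Acsl5, 0.35 for Slc27a4, 0.32 for Acsl3 and 0.31 for the acyl-CoA binding protein Dbi.

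Among apolipoproteins and chylomicron assembly, Apoc2, which activates lipoprotein lipase, had 19985, 7921 and 4789.9 in SI3. The palm oil array was 2.52-fold above the next. The diets differed little upstream, at 34772, 36989 and 41003 in SI1 and 34164, 34994.5 and 32968 in SI2. Apoc3, an inhibitor of the same lipase, was at 16202.5, 10602 and 10239 (0.64). Apoa4, a chylomicron protein secreted with fat absorption, was highest with HF-PO but under the fold used, at 31923.5, 25043 and 18678 (0.56), as was Mttp, the triglyceride transfer protein that loads apolipoprotein B, at 18949, 13732.5 and 15738 (0.37). The structural proteins Apob, at 4884, 6064 and 4823, and Apoa1, at 54908, 56944 and 50628, were highest with HF-OO. Of 13 genes of this list past the filter, 2 were set apart higher and 0 lower, with a median of 0.32, against -0.15 in SI1 and 0.00 in SI2.

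A binding sequence of PPAR alpha and of the liver and gut factor HNF4A is known as a direct repeat with 1 base between the repeats. The letters AGGNCANAGGNCA, which read TGNCCTNTGNCCT on the other strand, were looked for on both strands in RefSeq promoter windows of build GRCm38.p6, 250 bases before to 50 after each gene start. They occurred in 125 of 32851 windows (0.381%) and in 19 of 5511 genes past the filter in SI3 that have a window (0.345%). Of the 67 genes set apart higher, 54 had a window and 2 of them, Fabp1 and Apoc2, held the letters. Of the 17 lower genes 12 had a window and Bco1 held them, so matches fell on genes of both directions. These 3 promoters are shown because their genes are described here; a match of letters is no measure of binding. Each sequence is the 250 bases before the gene start, 5′ to 3′ on the strand of the gene, with the match in capitals. Fabp1 lies at chr6:71199629-71199878 on the plus strand, and its match is on the opposite strand, 67 to 55 bases before the start. Apoc2 lies at chr7:19677942-19678191 on the minus strand, with the match on the strand of the gene, 122 to 110 bases before the start. Bco1 lies at chr8:117095615-117095864 on the plus strand, with the match on the opposite strand, 56 to 44 bases before the start.
Fabp1: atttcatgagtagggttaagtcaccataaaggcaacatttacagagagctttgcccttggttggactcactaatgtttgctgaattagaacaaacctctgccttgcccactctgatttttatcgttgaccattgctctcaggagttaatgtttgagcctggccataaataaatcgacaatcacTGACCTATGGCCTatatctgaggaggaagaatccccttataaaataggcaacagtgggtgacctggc
Apoc2: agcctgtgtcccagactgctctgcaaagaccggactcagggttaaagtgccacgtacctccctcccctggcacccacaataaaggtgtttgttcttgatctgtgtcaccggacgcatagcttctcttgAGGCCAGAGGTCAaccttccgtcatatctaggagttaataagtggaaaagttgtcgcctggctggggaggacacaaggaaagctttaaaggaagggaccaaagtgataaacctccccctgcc
Bco1: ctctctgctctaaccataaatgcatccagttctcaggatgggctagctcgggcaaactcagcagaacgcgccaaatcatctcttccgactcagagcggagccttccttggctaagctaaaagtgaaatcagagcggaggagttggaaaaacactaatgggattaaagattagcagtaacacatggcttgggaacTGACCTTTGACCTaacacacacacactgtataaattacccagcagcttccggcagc

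Genes of triglyceride synthesis differed less. Of 12 genes past the filter 0 were set apart, HF-PO lay above both diets in 8 and below both in 3, and the median was 0.18. The acyltransferase Dgat2, which makes the last bond of triglyceride, had 6058, 4720.0 and 4181 (0.45), and the acyltransferase of the monoglyceride pathway, Mogat2, 12564, 10776 and 10319 (0.25). Gpd1, which supplies glycerol phosphate, was at 5005, 4329 and 3715 (0.32) by its brightest probe set, though a dim one went the other way (74.1, 504.7 and 458.7). Among lipid droplet genes, Cidec, which fuses droplets, was the only one of 8 past the filter that was set apart, at 1180.5, 658 and 667 (0.82). The droplet coat Plin2 stood at 3158, 2621 and 2092 (0.43). Fitm1, which helps droplets bud from the endoplasmic reticulum, never reached 500 but was at 270.5, 54.6 and 42.6.

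In fatty acid oxidation 1 of 19 mitochondrial and 1 of 15 peroxisomal genes past the filter were set apart. In all 19 mitochondrial genes past the filter HF-PO had the highest signal of the 3 diets, where this held for 36.1% of all genes, but differences ran from 0.00 to 0.68 and the median was 0.22. The median of the same genes was 0.10 in SI1 and 0.11 in SI2. Only the dehydrogenase Acadl was set apart, at 7516.5, 4997 and 4365, just above the fold used. Slc25a20, the carnitine carrier of the inner membrane, had 5326, 3420.0 and 3749 (0.57) and Acadvl, the first dehydrogenase for long chains, 4913, 3462.5 and 3631 (0.47). Cpt1a, which makes the acylcarnitines that enter, was level at 4112, 4035 and 4109.9.

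Acaa1b, a thiolase of peroxisomal oxidation, had the widest gap of all genes set apart higher. Its signals in SI3 were 2799, 644 and 671, 4.10-fold above the nearer diet. HF-PO was also set apart in SI1, with 6817, 4422 and 4061, and in SI2, with 5454, 3561 and 2745. From SI2 to SI3 the signal was lower in every pool, least so with palm oil. Its near-copy Acaa1a stood at 1266, 893.5 and 914 (0.48), and probes of so similar genes may share transcripts. Hsd17b4, the bifunctional enzyme of the same pathway, had 6545, 4382 and 4847.5 (0.50), while the PPAR alpha target Ehhadh had 2243, 1944.5 and 2090.2 (0.15). Of 15 peroxisomal genes past the filter 1 was set apart, HF-PO lay above both diets in 13, and the median was 0.31, against 0.14 in SI1 and 0.17 in SI2.

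Pdk4, the kinase that blocks entry of pyruvate into oxidation and a target of PPAR alpha, had 664, 159 and 126 in SI3, and it passed the filter through HF-PO alone. Upstream HF-PO was also the highest, with 1707, 1366 and 1144 in SI1 and 2112.5, 1424 and 1024.5 in SI2, at differences of 0.44 and 0.80 against 2.11 in SI3. Angptl4, an inhibitor of lipoprotein lipase induced by fatty acids, was at 1127, 649 and 605.5 (0.83, and 0.48 and 0.54 upstream). Aqp3, a channel for water and glycerol, was at 864, 436 and 413 (1.00). Vnn1, a pantetheinase, was only slightly higher, at 17704, 13478 and 14429 (0.34), and the transcript of the receptor itself, Ppara, was level at 1095, 1078 and 1013. Of 11 genes of ketogenesis and inducible PPAR alpha targets past the filter 3 were set apart higher and 0 lower (median 0.34). Among 7 acyl-CoA thioesterases past the filter, Acot4, at 790.2, 411.5 and 438, and Acot12, at 1639, 1065 and 945, were set apart higher, and the median was 0.08. Acot1, another PPAR alpha target, stayed under the filter at 176, 82.1 and 103. In SI1 HF-PO was set apart higher for Acot1, at 761, 320.4 and 229, and for Acot2, at 931, 493 and 440.0.

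The 8 lists of fat handling named so far held 126 genes, 117 of them measured and 92 past the filter. HF-PO was set apart higher in 13 (14.1%) and lower in 0, beside 0.998% and 0.253% of all genes, and lay above both diets in 75 (81.5%), against 36.1% of all genes. The median difference was 0.25, and 0.24 over all 117 measured, so it did not rest on the filter. Over the same 92 genes it was 0.04 in SI1 and 0.09 in SI2. Of the fat genes past the filter of their own segment, 3 of 95 were set apart higher in SI1 and 2 of 94 in SI2. With HF-OO in the place of HF-PO, 0 of the 92 were set apart in SI3, and with HF-SO 1 was lower, Apoc2. Of the 13, 4 passed the filter through HF-PO alone and had to differ to be counted, and 9 passed through another diet too. The lists were chosen with earlier results of these data known, so these shares are descriptive and no independent test.

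**Figure D2:**
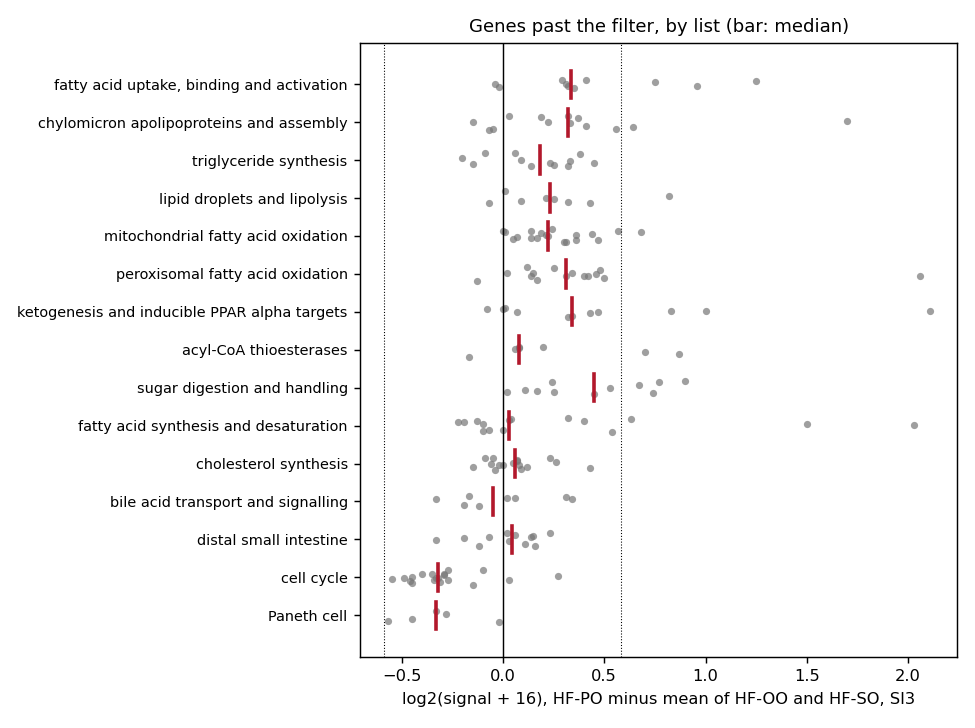
HF-PO against the average of the other diets in SI3, as a difference in log2(signal + 16), for each gene past the filter (grey points) of 15 gene lists, with the median of each list as a red bar, 0 as a solid line and 1.5-fold either way as dotted lines. Medians of the fat lists lie to the right of 0, between 0.08 and 0.34, sugar handling is at 0.45, and cell cycle and Paneth cell lists lie to the left, at -0.32 and -0.33.

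In fatty acid synthesis 2 of 15 genes past the filter were set apart, Scd1 and Me1. Scd1, which puts a double bond into saturated fatty acids, had 4356, 1277 and 867.5 in SI3. Its second probe set went the same way, at 680.5, 290.0 and 163.0. HF-PO was set apart for Scd1 in every segment, with 862, 306 and 161 in SI1 and 2909.9, 1282 and 474 in SI2, and HF-SO was the lowest each time. The differences from the mean of the others were 1.88, 1.88 and 2.03, so the distance was almost as large in SI1 as in SI3. Scd2, a related desaturase, was low with HF-SO rather than high with HF-PO (10421, 9284 and 4889). Me1, the malic enzyme that supplies NADPH, was at 1004, 401 and 294 (1.50), compared with 0.66 in SI1 and 0.53 in SI2.

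Enzymes that build the fatty acid chain were slightly lower or level with palm oil. Fasn, the fatty acid synthase, stood at 1257, 1544 and 1336, the carboxylase Acaca at 543, 671 and 598 and the elongase Elovl6 at 1964, 2159 and 2051.5, each lowest with HF-PO. The elongase Elovl7 was level at 2086, 2068 and 1985 (0.04). Of the 15 genes of the list past the filter, HF-PO lay above both diets in 7 and below both in 5, and the median was 0.03. Cholesterol synthesis had 0 of 16 genes set apart and a median of 0.06, with Hmgcs1, which makes the precursor of mevalonate, at 12024, 12053 and 12249.6. Of 10 genes of SREBP2 control and the LDL receptor 0 were set apart, HF-PO was below both diets in 6, and the median was -0.19.

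**Figure D3:**
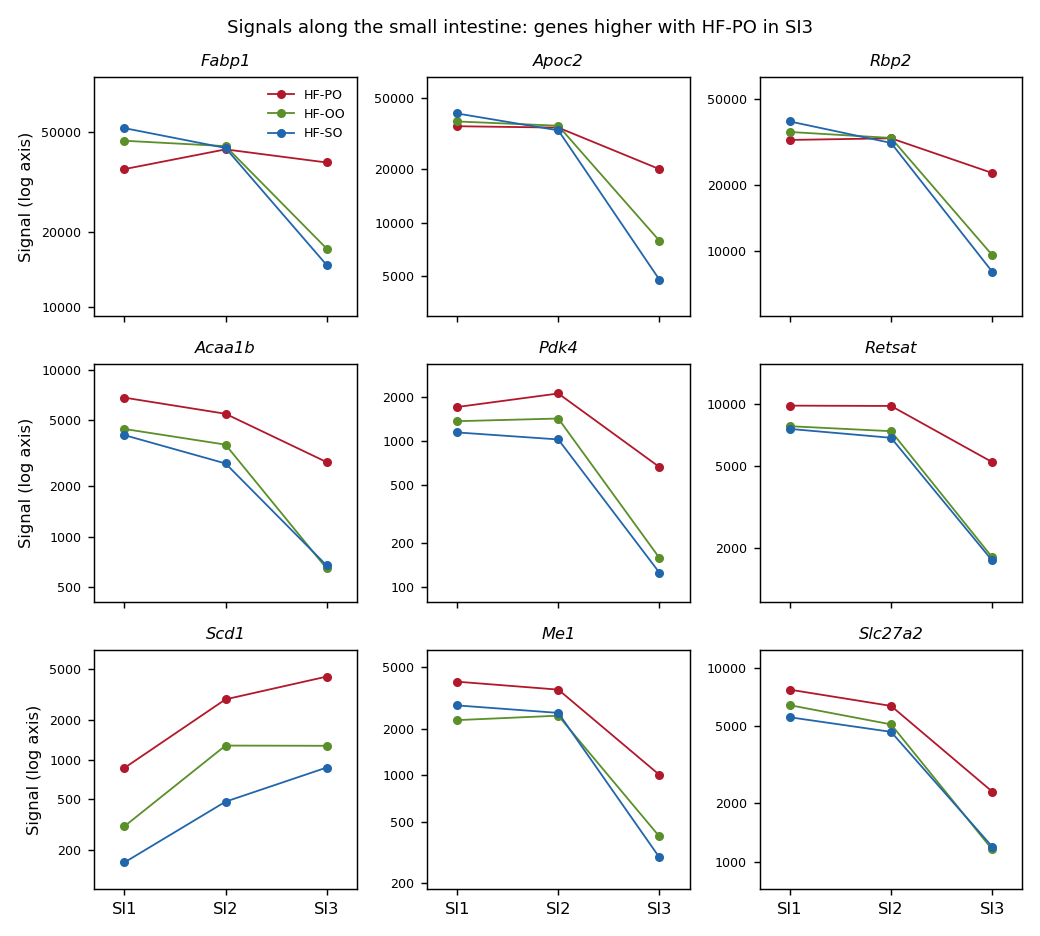
Signal (log axis) in SI1, SI2 and SI3 of 9 genes set apart higher with HF-PO in SI3, 1 panel per gene and 1 line per diet pool; each point is 1 array of RNA pooled from 6 mice. For Fabp1, Apoc2 and Rbp2 the lines meet in SI2 and part in SI3, for Acaa1b, Pdk4, Retsat, Me1 and Slc27a2 HF-PO is already highest upstream, and for Scd1 the lines are apart throughout.

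Genes of vitamin A handling were apart in both directions. Rbp2, which binds retinol in enterocytes as it is absorbed with fat, had 22810.2, 9565.5 and 8022 in SI3, 2.38-fold above the nearer diet, while in SI2 the diets had 32934, 33050.5 and 31351. Retsat, which saturates retinol, was at 5205, 1796 and 1732.5, and its second probe set at 1403, 434.5 and 469.6. HF-PO was also highest for Retsat upstream, by 0.35 in SI1 and 0.46 in SI2 against 1.55 in SI3. Bco1, the enzyme that cleaves beta-carotene to retinal, was lower with HF-PO in every segment, at 394, 1224 and 941 in SI1, 442, 1496.5 and 1186 in SI2 and 195, 733.5 and 413 in SI3. HF-OO was the highest each time. Isx, the transcription factor that represses Bco1, was at 3858, 3539.8 and 3459 (0.14) in SI3. Of 6 genes of this list past the filter 2 were set apart higher and 1 lower.

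Sugar digestion and handling was the list with the highest median in SI3 among the 46. HF-PO was the highest of the diets in 10 of 11 genes, the median was 0.45, and the same genes had -0.11 in SI1 and 0.23 in SI2. The trehalose-splitting enzyme Treh stood at 6068, 3807 and 3461 and G6pc, which releases glucose from its phosphate, at 892, 495 and 541; both were set apart. Pck1, which feeds gluconeogenesis, fell short of the fold used because HF-OO lay between the others (1514, 1022 and 634), and Fbp1, of the same pathway, had 1900.4, 1272 and 1357. HF-SO was in turn set apart lower in 2 of the 11, Pck1 (-0.68 from the nearer diet, log2) and the glucose carrier Slc2a2 (-0.59). The main glucose importer Slc5a1 was level at 24089.6, 23026 and 21786.5. Peptidases and amino acid transporters had a median of 0.02, with 0 of 18 genes set apart.

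Other genes set apart higher did not belong to a list. In all, 22 of the 67 were in a list and 45 were not. H2-Q10, a secreted class I molecule, had 670.3, 188.5 and 123 in SI3 and was set apart in SI2 as well (3025, 1961 and 1413), while 0 of 11 listed genes of the class I pathway were. H2-Bl, a class I gene outside the list, was set apart at 947, 529 and 557. Ltc4s, the leukotriene C4 synthase, was at 615, 249 and 243, the vesicle transport gene Sec22c at 938, 403 and 390.4 and the beta-tubulin Tubb2a at 3566.5, 1767 and 1604. These 4 genes were at least 2-fold above both diets, and all but Tubb2a passed the filter through HF-PO alone. Tm4sf4, a tetraspan membrane protein of the intestinal epithelium, had 12118, 6123 and 5087 (1.12) and the short-chain dehydrogenase Dhrs1 3509.9, 1771 and 1828 (0.96).

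Further genes of the 67 are named here after their values were seen. Abhd6, a monoglyceride lipase, had 7346, 4004 and 3734, Ephx2, the soluble epoxide hydrolase, 5109, 2889 and 2162, and Ces2b, a carboxylesterase, 2057, 1314 and 1330.0. Mfsd2a, a transporter of lysophospholipids, was at 921, 573 and 437 and the lysophospholipid acyltransferase Lpgat1 at 5205, 3259 and 2965. Ada, adenosine deaminase, had 17426.5, 10541 and 8886, and Leap2, a peptide hormone that opposes ghrelin, 2668, 1475 and 1391. Gip, the incretin of enteroendocrine K cells that fat and sugar release, was at 1985, 1277 and 1229.6 and was the only one of 8 enteroendocrine genes past the filter that was set apart. Saa1, an acute-phase protein induced in the ileum by microbes, stood at 2653.5, 1198 and 1611, with 1 of 9 host defence genes set apart. Hspb1, a small heat shock protein, was at 605, 346 and 312.

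The 17 genes set apart lower were led by Car1, a carbonic anhydrase of the colonic epithelium and of erythrocytes. Car1 had 77.3, 1292 and 1026 in SI3, so both other arrays were far above HF-PO. In SI1 it was near the bottom of the scale with 58.3, 21.0 and 47.5, and in SI2 HF-OO was the highest, at 67.6, 294 and 7.3. Other genes of the colon list differed among themselves. Car4 (5016, 4414 and 4169) and the chloride exchanger Slc26a3 (6178.5, 5531 and 5333) were not lowest with HF-PO, while the water channel Aqp8, below the filter, was, at 69.0, 145 and 104 (-0.71). Of 4 listed markers of erythrocytes only 2 were measured, Hba-a1 and Alas2. Both were near the bottom of the scale, with a summed signal of 21.3, 51.6 and 46.7 in HF-PO, HF-OO and HF-SO. The part of blood in the pools was not tested. In RNA of whole scrapings, fewer cells of a type and less RNA per cell cannot be told apart.

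Fkbp5, a co-chaperone of steroid receptors that glucocorticoids induce, was lower with HF-PO in every segment. It had 438, 1204 and 869.5 in SI1, 399.6, 1221 and 718 in SI2 and 648, 1195 and 1289 in SI3, and its second probe set in SI3 had 396.5, 710.0 and 654.0. Npl, a lyase that breaks down sialic acid, was lower in SI2, at 724, 1212.5 and 1479, and in SI3, at 1046, 1635.5 and 1965. Reg4, a secreted lectin, was set apart in SI3 alone, at 2276, 4097 and 3683, after 5999, 5099.8 and 4969.9 in SI1. The glutamine transporter Slc1a5 had 641, 1031 and 977. Mboat1, a lysophospholipid acyltransferase, had 383, 835 and 684 and Zdhhc14, a palmitoyl transferase, 355, 604 and 712. Bex1 stood at 1121, 1855 and 1796 and Tcl1b3 at 1196, 2039 and 2185.

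In other lower genes the 2 reference diets were far apart or the probe sets disagreed. Sema3f, a guidance molecule, had 123, 603 and 218, Zbp1, a sensor of nucleic acids, 153, 239 and 521, and Rpl39, a ribosomal protein, 301, 711.5 and 483.5, so HF-PO was lowest but the other diets lay far from each other. The inducible heat shock gene Hspa1b was at 1147, 1909 and 2543, while another of its probe sets had 657.3, 646.3 and 1063.5. Irf2bpl (254.5, 509.7 and 461), Oxnad1 (399, 691 and 741) and the ubiquitin ligase Mid1 (260.2, 429 and 511) complete the set. Under the filter, HF-PO was highest in another probe set of Zbp1 (231.5, 160.5 and 182.6) and of Irf2bpl (343.1, 335.6 and 323.0). In another of Oxnad1 it lay between the others (373.4, 333.5 and 445.8). Other dim probe sets, as those of Sema3f, had HF-PO lowest. Of the 17, 10 passed the filter only through the other diets.

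**Figure D4:**
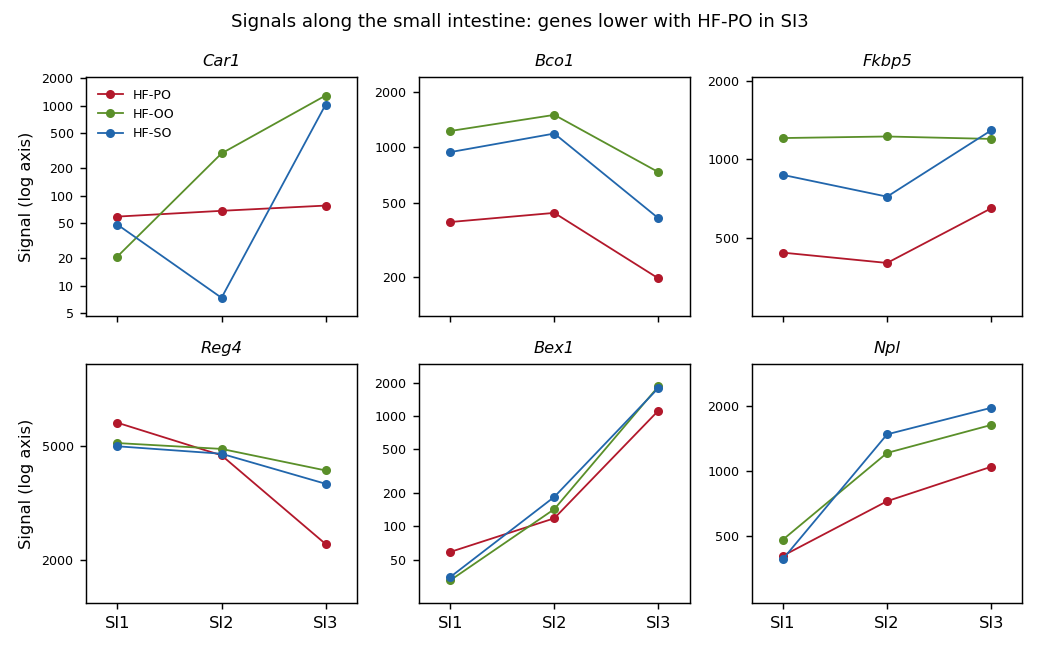
Signal (log axis) in SI1, SI2 and SI3 of 6 genes set apart lower with HF-PO in SI3, drawn as for the higher genes (1 panel per gene, 1 line per diet pool, 1 array per point). HF-PO is lowest in every segment for Bco1 and Fkbp5, in SI2 and SI3 for Npl, Bex1 and, by little in SI2, Reg4, and in SI3 for Car1.

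Proliferation genes were slightly lower with palm oil in SI3, none by the fold used. In 17 of 19 cell cycle genes past the filter HF-PO was the lowest of the diets, where this held for 38.1% of all genes, and the median was -0.32, after 0.32 in SI1 and -0.16 in SI2. Cdc20, which drives exit from mitosis, had 1512, 2136 and 2319 and the proliferation marker Mki67 1569, 2108 and 1822. The exceptions were Mcm2, a helicase subunit, which was highest with HF-PO at 690.4, 653 and 494, and the thymidine kinase Tk1, where HF-PO lay between the others at 545, 573 and 499.9. Paneth cells, which sit at the crypt base with the dividing cells, had a median of -0.33 over 5 markers, with Mmp7 at 3433, 4816 and 4568, Pla2g2a at 1003, 1469 and 1520.1 and Lyz1 level at 45551, 48392 and 44291. Their summed signal was 90978, 107930 and 98514. Of the stem cells beside them, 8 markers were measured, with a median of -0.21. Of these markers 3 passed the filter, with differences from -0.31 to 0.16. Axin2 stood at 2076, 1634 and 2110.0, Olfm4 at 10734, 10556 and 12776 and Smoc2 at 744, 1005 and 855, with no common order of the diets. The part of crypt content in the values was not tested.

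The medians of other cell type lists lay on both sides of 0. They were 0.02 for 9 enterocyte genes, 0.04 for 12 distal markers, -0.02 for 8 goblet cell genes and 0.02 for 4 genes of B and plasma cells, with 0 genes set apart in each. They were -0.20 for 3 macrophage genes, -0.20 for 3 smooth muscle genes and -0.18 for 3 genes of the exocrine pancreas, and the 1 fibroblast gene past the filter had 0.26. Proximal markers were higher with HF-PO in all 6 past the filter, by 0.23 to 0.53 (median 0.31), among them the transcription factor Gata4 at 852, 599.9 and 719 and the alcohol dehydrogenase Adh6a at 4089, 2824 and 3276. Over all 12 markers measured the median was 0.25 and the summed signal 28553, 24520 and 22277. Markers under the filter went both ways, as with Akp3 (-0.41) and Onecut2 (1.78). By another choice, 81 genes fell at least 2-fold from SI1 to SI2 in all 3 diets. Their median in SI3 was 0.04, with 0 set apart higher and 1 lower. Over all 6893 genes past the filter in SI1 or SI2 the median in SI3 was 0.0, with 66 set apart higher and 12 lower. At so low a share, a count of 0 among 81 genes says little. Genes under the filter in SI3 could not be counted as set apart there, and how many of the 81 were under it is not given here. The part of position along the gut in the values was not tested.

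The 3 lymphocyte markers past the filter were highest with HF-PO, among them the granzyme Gzma at 3416, 2479.7 and 2799 and the chemokine Ccl5 at 1785, 805 and 1181. Ccl5 alone was set apart with HF-PO, and HF-OO was the lowest diet for all 3 markers. The receptor subunits Cd3g (342, 221 and 311) and Cd8a (229, 203 and 239.8) were under the filter. HF-OO was lowest in both, while HF-PO was highest in Cd3g and HF-SO in Cd8a. For the subunit Cd3e, also under the filter, HF-OO was highest (51.8, 205.4 and 50.7). The summed signal of the list was 7218, 4813 and 5933. No measured marker on the lists of tuft cells, endothelium, nerve, erythrocytes or mast cells reached 500. Adipocyte genes had Adipoq at 311, 269.8 and 307 beside Cidec, named above, and Fabp4 at 1176, 784 and 978. Over the 46 lists together, 30 had no gene set apart in SI3, 14 had a higher one and 3 a lower one. The other lists without a gene set apart included bile acid transport (0 of 8, median -0.05), cholesterol absorption (0 of 6, 0.04), xenobiotic metabolism (0 of 20, 0.05), class II presentation (0 of 6, 0.06), the unfolded protein response (0 of 15, -0.04), clock genes (0 of 9, -0.12), immediate early genes (0 of 11, 0.06) and metabolic nuclear receptors (0 of 14, 0.07). Among nuclear receptors Nr1i3, a xenobiotic receptor, came closest, at 652, 436 and 354.

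The 67 genes higher in SI3 leaned the same way in SI2 and less so in SI1, while the 17 lower ones leaned the same way in SI2 but not in SI1. Of the 67 higher genes, HF-PO was the highest diet in 51 (76.1%) in SI2 and in 38 (56.7%) in SI1, where over all 6712 genes it was the highest in 35.3% and 35.0%. Their median difference was 0.15 in SI1, 0.27 in SI2 and, by choice of the genes, 0.83 in SI3. The SI1 and SI2 arrays played no part in choosing these genes, but they share mice with the SI3 arrays. Of the 17 lower genes, HF-PO was the lowest in 11 (64.7%) in SI2 and 4 (23.5%) in SI1, against 34.2% and 36.6% of all genes, with medians of -0.35 and 0.16. In SI1 it was the highest in 7 of the 17 (41.2%).

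**Figure D5:**
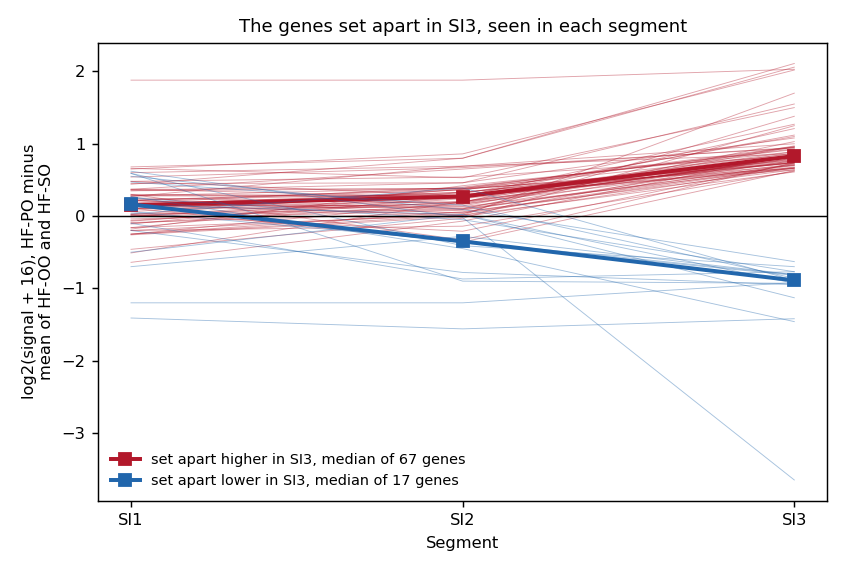
HF-PO against the average of the other diets, as a difference in log2(signal + 16), in each segment for the 67 genes set apart higher (thin red lines) and the 17 set apart lower (thin blue lines) in SI3; squares and thick lines are medians. The red median goes from 0.15 to 0.27 to 0.83 and the blue one from 0.16 to -0.35 to -0.89; the values in SI3 are large because they chose the genes.

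Of the 67 higher genes, 2 were also set apart in SI1 (3.0% of the SI3 genes and 11.8% of the 17 in SI1) and 6 in SI2 (9.0% of the SI3 genes and 60.0% of the 10 in SI2). Over all 6712 genes past the filter in SI3, 8 were set apart higher in SI1 and 8 in SI2. Acaa1b and Scd1 were set apart in all segments, and Aqp3, Ccl5, H2-Q10 and Mettl7a1 in SI2 and SI3. Of the 17 lower genes, Bco1 and Fkbp5 were set apart in all segments, which is 16.7% of the 12 in SI1, and Npl joined them in SI2, which makes 14.3% of the 21 there. In SI1 the genes farthest above with HF-PO were Gkn2 (2515, 357 and 342.5), Tff2 (4474, 374 and 693), Gkn1 (1321, 258 and 194) and Gkn3 (1349.7, 229.6 and 273), which gastric mucosa secretes. The genes farthest below were the ferric reductase Cybrd1 (435, 2082.5 and 1209), Bco1 and Lims1. In SI2 the metallothionein Mt1 was lower (4276, 8736.5 and 8461) and the class I-like H2-T18 higher (744.5, 339 and 324).

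The other diets were apart in fewer genes of SI3. HF-OO was highest for Lyrm9 (a gap of 1.56 from the nearer diet, log2) and Sema3f (1.41) and lowest for the T-cell kinase Zap70 (-2.52) and the immunoglobulin gene Igk (-0.83). HF-SO was highest for the carboxylesterase Ces5a, Zbp1 (1.08) and the cytochrome Cyp2c55 (0.82) and lowest for Scd2 (-0.92) and Apoc2 (-0.72). In 43 of the 67 genes higher with HF-PO (64.2%), HF-OO lay above HF-SO, against 54.4% of all genes.

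The limit of 1.5-fold has many genes close to it. Ckb, Ccl5 and Acadl lay just inside, at 1.5- to 1.51-fold, and Bet1, Plpp1 and 1600014C10Rik just outside, at 1.49- to 1.5-fold. Between 1.4- and 1.5-fold there were 33 genes higher and 34 lower, and at 2-fold or more 12 higher and 2 lower. Below, Zbp1, Slc1a5 and Npl were just inside, at 1.51- to 1.56-fold, and Mptx1, Tns4 and Mcm10 just outside, at 1.49-fold. By probe set, 84 of 11474 (0.732%) were set apart higher and 42 (0.366%) lower, 126 either way. HF-OO had 32 and HF-SO 51 either way in SI3. For HF-PO there were 63 in SI1 and 67 in SI2, where 43 were lower, about as many as in SI3. A second probe set past the filter existed for 13 of the 67 higher genes, 15 in all, and in 13 of the 15 HF-PO was again above both diets and in 8 again set apart. Those of Pcgf5 (585.5, 620.6 and 560.7) and Zkscan3 (738.8, 749.6 and 650.6) showed no such difference.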

How the data were processed

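RNA of 9 pools, each from 6 mice, was hybridised to 1 Affymetrix array per pool, per the labels. Each deposited value is the signal intensity of a probe set on an array, on a linear scale, made by the authors with MAS5, per the submitters' processing notes; its version and settings are not given in the sources used here. The 2% trimmed mean of each deposited array was 500.0, so arrays were compared as scaled. Of 45101 rows, 64 array controls were left out and 45037 analysed. Names came from the platform annotation, in which 34945 probe sets had 1 symbol, 932 several and 9160 none. Of the first, 34741 matched a RefSeq gene table (GRCm38.p6) by identifier and 0 symbols changed.

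Signals were analysed as log2(signal + 16). A gene was its brightest probe set by mean log2 over the 9 arrays, which gave 18193 genes. Probe sets with a signal of 500 in at least 1 of the 3 arrays of a segment were kept. The difference is that of HF-PO from the average of the other diets. A gene was set apart at 1.5-fold or more from both, in the same direction. With 1 array per diet and segment no p-value was computed, and the precision is limited by the number of arrays. The text names the 15 genes farthest each way in SI3 by the gap to the nearer diet and genes set apart alike in all segments. It also names some of the 5 farthest each way in SI1, SI2, HF-OO and HF-SO, and members of 46 gene lists. Others named were chosen after their values were seen. The members and lists were chosen with earlier results of these data known. Alternatives covered the pseudocount, fold, filter, scaling, probe set and reference diet. The counting was tested on simulated data. Python 3.11.15, numpy 2.4.6, pandas 2.3.3, scipy 1.17.1 and matplotlib 3.10.9 were used.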

Additional observations from a re-analysis of the deposited data

Results flagged for a closer look

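A single dim probe set of Gpd1 moved in opposite directions with palm oil in neighbouring segments. Its difference from the mean of the other diets was -2.46 in SI3, where HF-PO, HF-OO and HF-SO had 74.1, 504.7 and 458.7, and 1.02 in SI2, with 525.3, 220.3 and 286.1. In SI1 it had 26.9, 446.2 and 686.9. The difference between segments was not tested, since each value rests on 1 array per diet. The bright probe sets of Gpd1 did not follow in SI3, at 5005, 4329 and 3715 and at 3199, 3091 and 3057.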

How the results depend on the processing

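In SI3, 67 genes were set apart higher with HF-PO and 17 lower, 13 of the fat lists among the higher; HF-OO had 17 and HF-SO 20 either way, and HF-PO had 29 in SI1 and 31 in SI2. In that order, a limit midway between no change and 1.5-fold gave 256, 198, 24, 146, 166, 282 and 220 genes, and a fold of 2 gave 12, 2, 4, 4, 2, 10 and 4. With HF-OO alone as the reference, HF-PO had 106 higher and 62 lower in SI3, 92 in SI1 and 89 in SI2, and with HF-SO alone 116, 61, 110 and 109. A signal of 200 as the filter gave 92 higher and 78 lower in SI3, 81 for HF-OO, 80 for HF-SO, 106 in SI1 and 79 in SI2. A signal of 1000 gave 47, 8, 4, 12, 15 and 15 in the same order, and no filter 603, 935, 1476, 1333, 1337 and 1303. A mean of 500 or more over the 3 arrays, an alternative chosen after the data were seen, gave 11 lower genes and 10 for HF-OO. The other counts, under pseudocounts of 1 and 64, quantile normalization, median centring and other choices of probe set, were within 1.5 times of those reported. Of the 67 and 17 genes, 38 and 6 were set apart under every alternative but the fold of 2, Fabp1, Apoc2, Rbp2, Scd1, Acaa1b and Car1 among them. A looser fold, 1 reference diet alone, and a lower filter or none could not remove a gene, so only the other alternatives bear on this. No paired analysis was possible because each diet has 1 pooled array in SI3, and its arrays of other segments, from the same mice, are no replicates of the diet. No replicate could be left out. Detection calls were not used here, so how far dim signals lie above background is unknown.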

Other observations

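Genes of the gastric surface and gland were set apart higher in the HF-PO array of SI1 and not in SI3. Gkn2, a gastrokine, had 2515, 357 and 342.5 in HF-PO, HF-OO and HF-SO of SI1, and Tff2, a trefoil peptide of the stomach, 4474, 374 and 693. Both are among the 17 genes higher with HF-PO in SI1, to which the count in SI3 was compared; the part of stomach tissue in that array was not tested.

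In SI3, 0 of 9 clock genes past the filter were set apart with HF-PO, which lay above both diets in 2 and below both in 5. HF-OO was highest for Per2 (478, 676 and 435), Dbp (644, 777 and 480.2), Nr1d1 (775, 966 and 813) and Nr1d2 (2439, 3156 and 2558). It was lowest for Npas2 (602, 362 and 541). For Arntl (820.5, 749 and 725), Clock (1468.2, 1468.5 and 1572) and Bhlhe40 (1763, 1829 and 2014) HF-OO lay between the others. The part of time of day in the values was not tested.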
